A study of Capra hircus with 3 samples.

Results

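LHX2, SOX9 and TP63 are 3 of the 16739 genes in a table of single-cell transcriptomes of fetal goat skin. They were taken by name as a set of hair placode and epithelial progenitor factors, with earlier results of these data known. Each was found under its own symbol. The cells came from back skin of Northern Shaanxi White Cashmere goats at embryonic day 60 (E60), 90 (E90) and 120 (E120), which the study places in the induction, organogenesis and cytodifferentiation of hair follicles. Each stage was 1 library of 10x Genomics 3′ chemistry in which cells of at least 2 fetuses had been pooled. E60 and E90 were pieces of whole skin dissociated with collagenase IV, and E120 was made of follicles picked out of collagenase-treated skin and dissociated with TrypLE, so what sets E120 apart by age and what by preparation cannot be told apart. No stage had a replicate, so no test was made, and the exact 95% intervals given below cover counting error only.

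Hair follicles begin as placodes, thickenings of the embryonic epidermis that form under signals exchanged with the dermis and then grow down as buds. TP63 encodes p63, a p53 family factor on which stratified epithelia depend, with keratin and adhesion genes of basal cells among its targets. LHX2 encodes a LIM homeodomain factor of placodes, early buds and later follicle progenitors, and SOX9 an HMG-box factor of the upper bud, the outer root sheath and the follicle stem cells, which is also the master factor of cartilage. In a grown follicle the matrix at the base divides and gives rise to the hair shaft and the inner root sheath, the outer root sheath surrounds them, and the dermal papilla sits within the bulb.

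The 3 libraries were similar in size and unlike in depth. They held 6849 cells at E60, 6931 at E90 and 6896 at E120, 20676 in all, against the 19705 that the study states. Cells had a median of 8579, 3714 and 13064 unique molecular identifiers (UMIs, each standing for 1 captured transcript). The median mitochondrial share was 4.52%, 11.1% and 5.26%. Pairs of libraries shared 9 to 13 cell barcodes, at most 0.189% of the cells. Clusters were made jointly from all cells without the 3 genes, and cells of 1 cluster from 1 library are treated as a unit where there were at least 50 of them, which gave 12, 10 and 14 units. No E60 unit came out as epithelial-like, and KRT14, SFN and PERP, some of the markers of the class, had 0 UMIs at E60. Other markers were counted there. With the class taken from each cell's own marker counts, 23 E60 cells (0.336%) were epithelial-like. Epithelial-like units held 2380 cells (34.3%) at E90 and 5351 (77.6%) at E120. Most clusters came almost wholly from 1 library, and such a cluster can reflect the library itself. Names of classes rest on marker genes scored here and are written as "-like".

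LHX2 was almost absent at E60 and well counted at both later stages. Its UMIs numbered 22, 4396 and 11837 from the youngest to the oldest stage, which are 0.338 (0.212 to 0.512), 145 (141 to 150) and 127 (124 to 129) on the counts-per-million (CPM) scale, with the UMIs of the whole library as the total. A CPM is a level in 3′ counts that is not scaled by gene length, so levels of different genes are not ranked here. The E60 level lay far below the other two, and those 2 lay close to each other. LHX2 was 429-fold higher at E90 than at E60, a log2 ratio of 6.77 on the scale of CPM + 1. From E90 to E120 the log2 ratio was −0.19, and it was 0.28 when the libraries were scaled by the median of ratios, so no direction is given for this step.

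SOX9 was highest at the middle stage. It had 441, 9932 and 3146 UMIs, or 6.78 (6.16 to 7.44), 328 (322 to 335) and 33.7 (32.5 to 34.9) CPM. None of these 3 intervals overlapped another. SOX9 was 48.4-fold higher at E90 than at E60 (log2 ratio 5.40) and 9.74-fold lower at E120 than at E90 (log2 ratio −3.25). With every cell weighing the same, whatever its depth, this log2 ratio was −2.28.

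TP63 was not counted at E60. It had 0 UMIs there, 308 at E90 and 717 at E120, or 10.2 (9.07 to 11.4) and 7.68 (7.12 to 8.26) CPM. A count of 0 allows up to 3 UMIs, which is 0.0461 CPM at E60, and the level at E90 was at least 221-fold higher than that. The log2 ratio from E90 to E120 was −0.36 and became 0.06 under the median of ratios, so this step too has no direction. Counts of TP63 were thin throughout, and 55 of the 656 E120 cells with TP63 had more than 1 UMI.

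Among all genes with at least 5 CPM at either stage, 24.0% of 7958 were 2-fold or more higher at E90 than at E60 and 7.45% were lower, and all 3 genes were among the former. LHX2 and TP63 reached 5 CPM at E90 only, so this minimum fixed their direction and their place among the higher genes adds nothing. SOX9 reached it at both stages. From E90 to E120, 9.15% of 8029 genes were 2-fold or more higher and 25.7% lower, and SOX9 was the only one of the 3 past that fold. The median log2 ratio of all these genes was 0.25 in the first step and −0.30 in the second. Scaling by the median of ratios moved these medians by −0.49 and 0.45. Since E60 had no epithelial-like unit and E120 was made of follicles, the share of cells named epithelial-like also differed between stages. It was 34.3% at E90 and 77.6% at E120. The E90 share leaves out an unnamed unit led by mitochondrial genes, with 53.0% of that library, which was closest to epithelial by markers. The shares were 10.9% and 77.7% at Leiden resolution 0.5, and 25.5% and 54.0% by each cell's own markers. The part of this share in the differences was not tested.

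**Figure D1:**
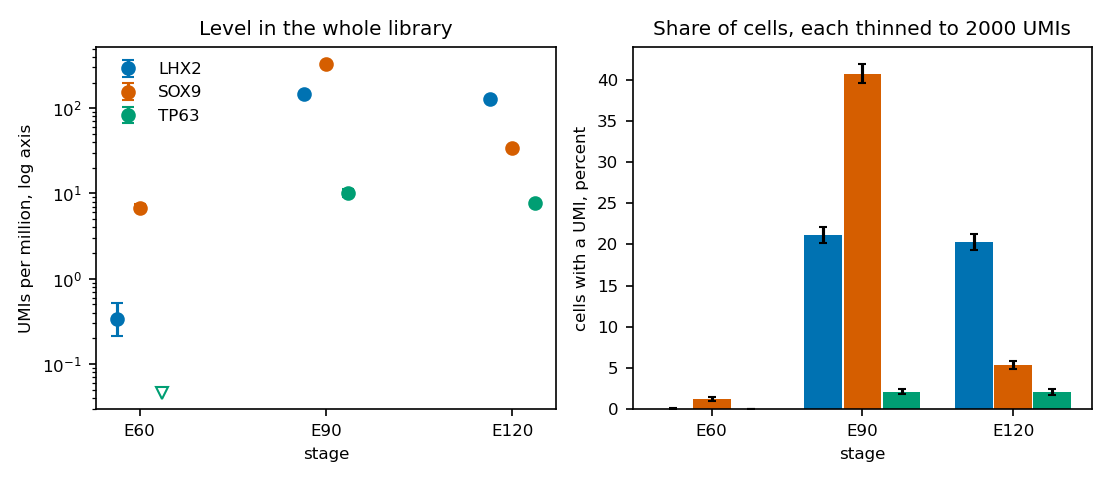
The left panel shows the level of each gene in CPM on a log axis, with exact Poisson intervals, and the open triangle is the limit of 0.0461 that 0 counts of TP63 allow at E60; the right panel shows the percent of cells with at least 1 UMI after each cell was thinned to 2000 UMIs, with exact binomial intervals. SOX9 is in 40.7% of thinned cells at E90 and 5.34% at E120, while LHX2 is in 21.1% and 20.3%.

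Shares of cells depend on depth, so each cell was also thinned at random to 2000 UMIs, which left out no cell. LHX2 was in 0.292% of cells at E60, 35.2% at E90 and 54.9% at E120, and in 0.0292%, 21.1% and 20.3% after thinning. The larger share of cells with LHX2 at E120 than at E90 was thus not present at equal depth. SOX9 was in 3.30%, 61.4% and 9.35% of cells, and in 1.21%, 40.7% and 5.34% after thinning, so that E90 was highest by both measures. TP63 was in 0%, 4.16% and 9.51% of cells, and in 0%, 2.11% and 2.06% after thinning, and the last 2 intervals overlapped. The absence of a TP63 UMI in all 6849 cells at E60 allows a share of up to 0.0438% by the same limit of 3 counts, and up to 0.0538% by the binomial interval.

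At E60 the few cells with LHX2 or SOX9 came from a library with no epithelial-like unit. Of the 20 cells with LHX2, 12 were in cluster 9, a dermal-like unit led by the replication genes TCF19, HIST1H1B and CLSPN, at 1.35 CPM (0.737 to 2.26). SOX9 was highest in the endothelial-like cluster 23 at 17.4 CPM (12.5 to 23.6), cluster 4 (led by DKK1, a WNT inhibitor, and the chemokine CXCL14) at 13.5 CPM (11.4 to 15.8), the mural-like cluster 21 at 12.4 CPM and cluster 7 (led by ANGPT1 and GDF10) at 10.8 CPM. The intervals of these 4 units overlapped. None of the 20 cells with LHX2 had SOX9, which was in 3.31% of the cells without LHX2, so 20 cells are too few to show a difference.

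The E60 unit with cartilage and tendon genes had almost no SOX9. Cluster 22, with 270 cells led by COL2A1, the main cartilage collagen, and TNMD, a tendon gene, had 1 SOX9 UMI, or 0.346 CPM (0.00876 to 1.93), while COL2A1 stood there at 453 CPM. Over the whole library the 226 cells with SOX9 had 5.78 CPM (3.08 to 9.88) of COL2A1, against 25.3 CPM (24.0 to 26.5) in the 6623 cells without it. TNMD was at 26.7 CPM in cells with SOX9 and 211 CPM in those without, and CYTL1, a secreted cartilage-associated factor, at 10.2 and 87.4 CPM. Of the 16 cartilage and tendon genes in the table, 11 were lower and 4 higher in cells with SOX9. The intervals did not overlap for 5 of the lower and 0 of the higher genes. No such counts were made over all genes, so these do not set the list apart from other genes. MKX, a tendon homeobox gene, was at 51.1 and 62.7 CPM, and CNMD, a cartilage relative of TNMD, at 21.3 and 18.5 CPM, both with overlapping intervals. Median depth was 8519 UMIs in cells with SOX9 and 8580 in those without. COL2A1 and cluster 22 were picked after their values were seen.

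At E90 LHX2 and SOX9 were counted in each of the 10 units and TP63 in all but cluster 28, and levels have to be read against that. Endothelial-like cells, which should lack LHX2 and TP63, had 85.1 CPM (56.1 to 124) of LHX2 in 18.5% of 81 cells, at a median depth of 3528 UMIs. The epithelial-like cluster 2, with 1769 cells led by KRT85, SEMA3E, LHX2 and KRT17 at a median depth of 3839 UMIs, had 268 CPM (257 to 280) in 48.5% of its cells. The endothelial-like level was thus 31.7% of the level in cluster 2 for LHX2. It was 32.0% for SOX9, 28.8% for KRT14 and 26.3% for KRT17. For TP63 it was 33.8%, a value that rests on 2 UMIs and has no precision. In the dermal-like cluster 14 the same 5 genes lay between 8.67% and 16.9% of cluster 2, with SOX9 the highest. Levels of LHX2 or TP63 at or below the endothelial-like one are not read as expression. Endothelial-like cells had the highest SOX9 of the E60 units, so for SOX9 they are not known to lack the gene. Whether free RNA made up these counts was not tested.

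LHX2 in cluster 2 stood above each other E90 unit without overlap of the intervals. The next levels were 176 CPM (132 to 230) in cluster 26, unnamed and led by mast cell genes, and 119 CPM (114 to 125) in cluster 1, unnamed, led by mitochondrial genes and holding 3674 cells (53.0% of the library). The suprabasal cluster 19, led by KRT4, KRT10 and KRT1, had 62.9 CPM (51.0 to 76.8), and cluster 24, led by SPP1, MMP7 and KRT7, had 75.8 CPM (59.7 to 94.8). The intervals of clusters 1, 19 and 24 overlapped the endothelial-like one, so LHX2 stood clearly above that level in cluster 2 and, by a narrow margin, in cluster 26 with its 78 cells. At E90 120 of the 134 cells with at least 5 LHX2 UMIs were in cluster 2, and 5 were in the larger cluster 1.

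SOX9 at E90 had another peak. Cluster 24 was highest at 988 CPM (927 to 1051), with SOX9 in 94.4% of its 213 cells, and 78.4% after thinning. These cells also held EHF, an epithelial ETS factor, at 529 CPM, and KRT14 at 2291 CPM. Cluster 2 followed at 513 CPM (497 to 529) and cluster 1 at 271 CPM (263 to 280), and these 3 intervals did not overlap. Cluster 26 had 255 CPM (202 to 319), which overlapped cluster 1. The suprabasal unit had 165 CPM (145 to 186) and the endothelial-like unit 164 CPM (122 to 215), which could not be told apart. The number of SOX9 UMIs per LHX2 UMI, compared between units only, was 13.0 in cluster 24, 1.91 in cluster 2, 2.28 in cluster 1 and 1.93 in the endothelial-like unit.

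TP63 at E90 was too sparse to place. Cluster 2 had 18.6 CPM (15.8 to 21.8), in 7.69% of its cells, above the dermal-like unit at 1.62 CPM (0.525 to 3.77) and above cluster 1 at 7.05 CPM (5.75 to 8.56). Its interval overlapped those of cluster 24 at 9.97 CPM (4.78 to 18.3), the melanocyte-like unit at 16.7 CPM (8.01 to 30.7) and the endothelial-like unit at 6.30 CPM (0.764 to 22.8). The last of these values rests on 2 UMIs.

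**Figure D2:**
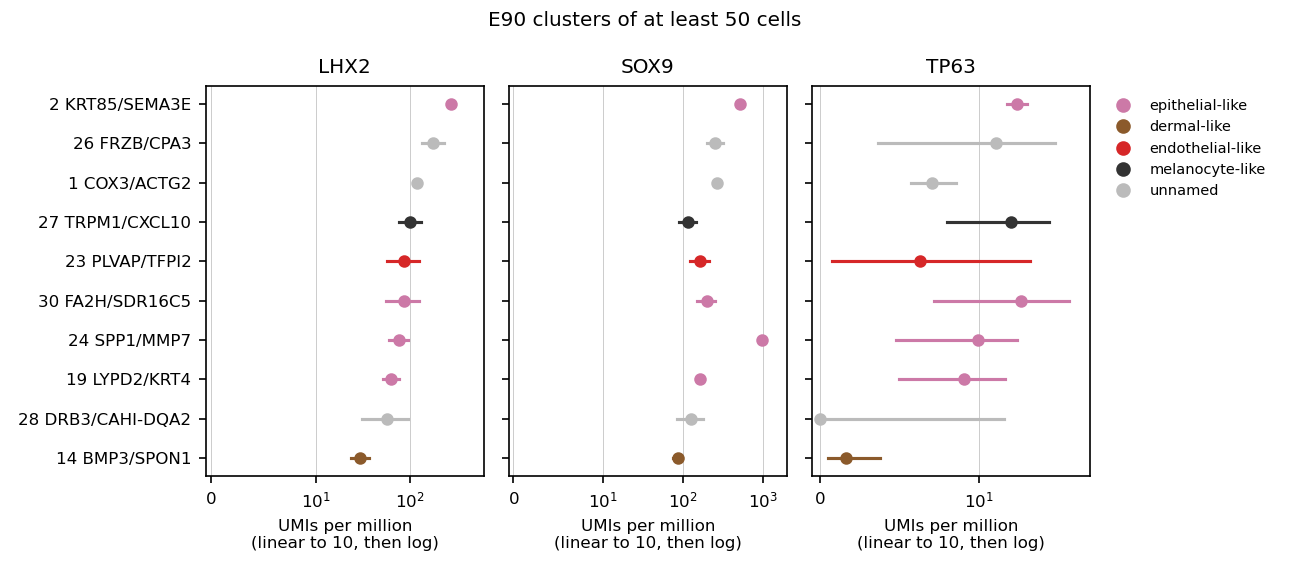
Each row is an E90 cluster of at least 50 cells, named by its number and leading genes and ordered by LHX2; points are CPM with exact Poisson intervals on an axis that is linear up to 10 and logarithmic above, coloured by class. Cluster 2 leads for LHX2 and cluster 24 for SOX9, and the endothelial-like unit has counts of all 3 genes.

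At E120 the endothelial-like levels of the 3 genes were lower than at E90 for LHX2 and SOX9, and overlapped for TP63. In the endothelial-like cluster 17, of 365 cells with a median depth of 6418 UMIs, LHX2 was at 24.7 CPM (19.2 to 31.2) in 9.32% of cells, SOX9 at 3.52 CPM (1.69 to 6.48) in 2.19%, and TP63 at 1.06 CPM (0.218 to 3.09) in 0.822%. After thinning LHX2 was in 2.47% of these cells, SOX9 in 0.548% and TP63 in 0%.

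LHX2 was spread over most of the E120 follicle. The highest level was in cluster 16 with 282 CPM (262 to 304), an epithelial-like unit of 398 cells. Its leading genes were SPP1, KLK7, KRT17, CST6, KRT14, SOX9, BARX2, KRT10, KLK6 and KLK10. Basal and sheath keratins (KRT14 at 13299 CPM, KRT17 at 14667 CPM and KRT5 at 1139 CPM) thus stood beside KRT10, a suprabasal marker. The unit is not given a part of the follicle. Cluster 10, led by DCN, a dermal marker, and by SHH (154 CPM), the hedgehog ligand made by matrix cells, had 255 CPM (244 to 266). The cycling cluster 12, led by TOP2A and left unnamed because DCN also leads it, had 242 CPM (232 to 252). Neighbours in this order overlapped, and clusters 16 and 12 did not. Levels then ran from 162 CPM in cluster 29 down through 159 CPM in cluster 15, 139 CPM in the shaft-like cluster 20 (GPRC5D, KRT85, KRT33A), 122 CPM in cluster 13, 104 CPM in the cycling cluster 6 and 87.9 CPM (83.9 to 92.0) in the shaft-like cluster 5 (KRT84, KRT35). Of these, clusters 6 and 5 did not overlap each other or any unit above them, except that cluster 6 (99.4 to 109) overlapped cluster 13 (107 to 137).

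The inner root sheath and the non-epithelial units formed the lower group for LHX2. Cluster 11, with the inner root sheath keratins KRT27, KRT71 and KRT25 in the lead, had 25.5 CPM (22.6 to 28.6), which overlapped the endothelial-like level, while the shaft-like cluster 5 lay above both. The mural-like unit had 40.6 CPM (23.7 to 65.1), the mast-like unit 30.1 CPM (16.9 to 49.7) and the papilla-like unit 15.3 CPM (9.49 to 23.4). Of the 822 cells with at least 5 LHX2 UMIs, 209 were in cluster 12 and 168 in cluster 10, against 39 in the shallower cluster 16 and 3 in cluster 11.

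SOX9 at E120 was concentrated in a single epithelial-like unit at the clustering resolution used here. Cluster 16 had 1008 CPM (969 to 1048), with SOX9 in 85.2% of its cells and in 66.6% after thinning. It held 79.9% of all SOX9 UMIs of the library and 5.77% of its cells. The other epithelial-like units lay between 1.11 CPM (cluster 20) and 7.31 CPM (5.61 to 9.37, cluster 10), and the endothelial-like interval overlapped each of theirs. At this depth SOX9 was therefore not detectably above the endothelial-like level in any of these 7 units. Another 93 SOX9 UMIs lay in 57 cells of clusters too small to be a unit, at 304 CPM. The 10 cells richest in SOX9 held 19.3% of its UMIs, with 123 UMIs in 1 cell. Cluster 16 was shallower than the library, at a median of 4598 UMIs, and its CPM was 934 when every cell weighed the same. LHX2 in cluster 16 was at 358 CPM under the same weighting. With finer clusters (Leiden resolution 2) SOX9 was among the leading genes of separate epithelial-like units. A unit of 136 cells was led by CCN2 and SEMA3E, and a unit of 264 cells by SPP1 and KLK7. Cluster 16 may therefore hold unlike cells.

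The papilla-like unit was the second place of SOX9 at E120. Cluster 25, with 207 cells led by FGF7, RSPO2, RSPO3 and COL1A2, had 143 CPM (124 to 165) in 44.0% of its cells, and in 21.7% after thinning. That level was 14.2% of the level in cluster 16, and the endothelial-like level was 0.350% of the level in cluster 16. Keratins of cluster 16 were not in the same proportion, since KRT14 was at 54.7 CPM in the papilla-like unit (0.412% of cluster 16) and KRT17 at 61.3 CPM (0.418%). BARX2, a homeobox gene among those leading cluster 16, was at 2.19 CPM (0.317%). KLK7, a kallikrein protease, was near that proportion, at 177 CPM (14.9% of cluster 16). DSP was at 2.33% and LHX2 at 5.43% of cluster 16, against 8.0% and 8.74% in the endothelial-like unit. All these genes were picked for this comparison after their values were seen. The source of the SOX9 counts in the papilla-like unit was not tested. The SOX9 level in the papilla-like unit was 157 CPM without cells called as doublets and 160 CPM when the top 6% of doublet scores were left out. At E120 the calls caught 27.1% of simulated doublets, so doublets can remain among these cells. Their part in the level was not tested.

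TP63 at E120 was also highest in cluster 16. It stood there at 29.7 CPM (23.3 to 37.2), followed by cluster 29 at 16.9 CPM (7.28 to 33.2, 8 UMIs), cluster 10 at 13.3 CPM (10.98 to 16.02) and cluster 12 at 13.3 CPM (11.03 to 15.8). The shaft-like cluster 5 and the cycling cluster 6 had 8.0 CPM (6.83 to 9.30) and 7.89 CPM (6.59 to 9.36). The late shaft-like cluster 20 at 1.47 CPM (0.762 to 2.58) and the inner root sheath unit at 2.51 CPM (1.68 to 3.61) overlapped the endothelial-like unit at 1.06 CPM. TP63 thus stood above the endothelial-like level in cluster 16 and in the SHH, cycling and early shaft units. It was not detectably so in the late shaft and inner root sheath units.

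**Figure D3:**
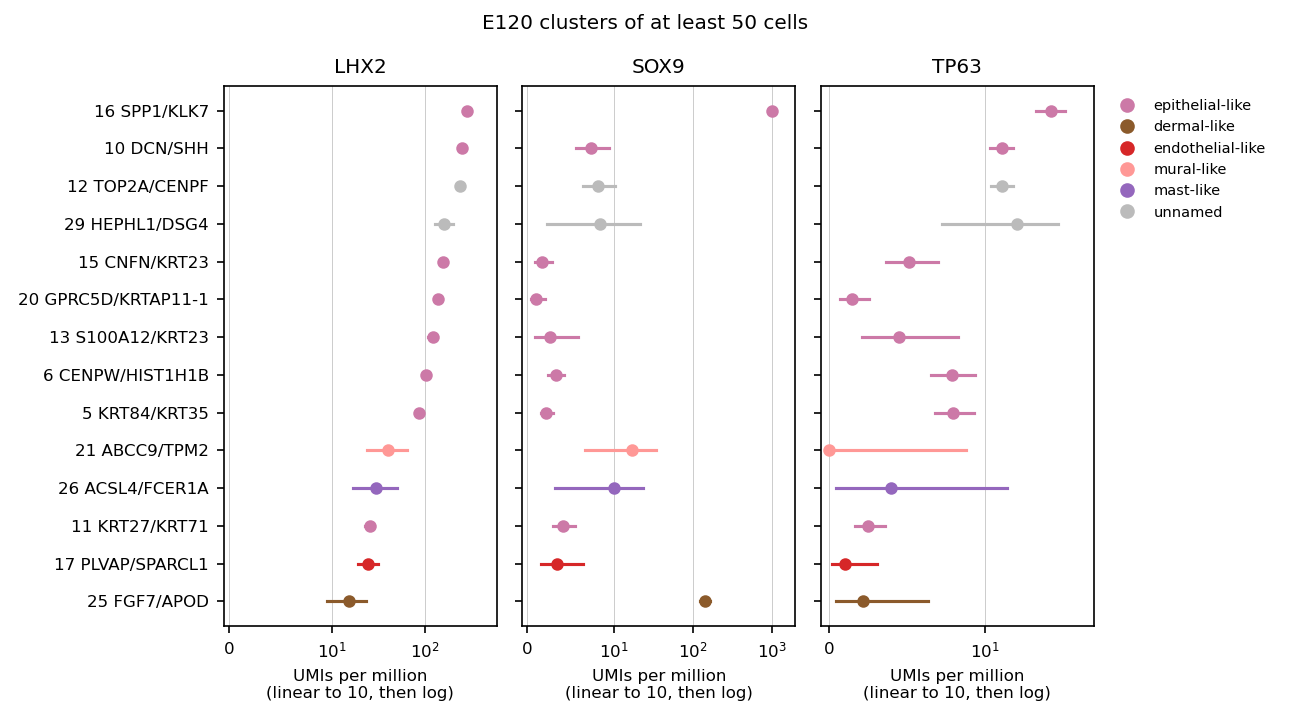
Each row is an E120 cluster of at least 50 cells, drawn as for E90 with CPM on an axis linear up to 10 and logarithmic above, and with exact Poisson intervals. LHX2 runs from 282 in cluster 16 to 15.3 in the papilla-like cluster 25, while SOX9 is at 1008 in cluster 16, at 143 in the papilla-like cluster 25 and at most 16.7 in the other clusters drawn.

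The ratio of SOX9 to LHX2 UMIs differed widely between E120 units. At E120 it was 9.33 in the papilla-like unit, 3.57 in cluster 16, 0.163 in the inner root sheath unit, 0.0337 in cluster 12, 0.0287 in cluster 10 and 0.00796 in the shaft-like cluster 20. At E90 it varied less, from 1.15 in the melanocyte-like unit to 13.0 in cluster 24. Over the 14 E120 units the Pearson correlation of log2(CPM + 1) was −0.01 between LHX2 and SOX9 and 0.73 between LHX2 and TP63, as a description of units that share 1 library.

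Cells with both LHX2 and SOX9 were more frequent at E90 than at E120. With all UMIs, 1650 E90 cells had both LHX2 and SOX9, and 89 had all 3 genes, 57 of these in cluster 2 and 22 in cluster 1. At E120 360 cells had LHX2 and SOX9, 214 of them in cluster 16, and 56 had all 3 genes, 43 of them in cluster 16. LHX2 and TP63 were together in 123 cells at E90 and 452 at E120, or 33 and 49 after thinning to 2000 UMIs. LHX2 alone was the most frequent combination at E120, in 3030 cells (43.9%), and SOX9 alone at E90, in 2489 cells (35.9%). Cells with none of the 3 were 96.4%, 26.5% and 38.4% of the libraries at E60, E90 and E120.

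At E90 LHX2 was in 38.8% of cells with SOX9 and 29.5% of cells without, and in 24.4% (22.8 to 26.04) and 18.9% (17.7 to 20.1) after thinning. Within epithelial-like cells the thinned shares were 28.8% (26.3 to 31.4) and 25.2% (22.7 to 27.8), and those intervals overlapped. TP63 made no clear difference at E90, since LHX2 was in 22.6% of cells with TP63 and 21.1% of cells without after thinning, and SOX9 in 43.2% and 40.7%. Since LHX2 and SOX9 were also counted in endothelial-like cells, an E90 cell with 2 of the genes need not be a cell that expresses both.

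At E120 the overlap looked different at unequal and at equal depth. LHX2 was in 55.8% of cells with SOX9 and 54.8% of cells without, but the median depth was 6820 UMIs in the former and 13540 in the latter. After thinning the shares were 33.2% (28.4 to 38.2) and 19.6% (18.6 to 20.6), which no longer overlapped. LHX2 was in 34.5% (26.7 to 42.9) of thinned cells with TP63 and 20.02% (19.1 to 21.0) of those without, and SOX9 in 19.0% (12.9 to 26.4) and 5.05% (4.54 to 5.60). At equal depth each gene was thus found more often beside another of the 3 than without it.

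Inside cluster 16 the intervals of all such pairs overlapped. Such pairs were not examined within the units of the finer clustering. After thinning LHX2 was in 39.6% (33.7 to 45.8) of its cells with SOX9 and 39.1% (30.8 to 47.9) of those without. SOX9 was in 76.5% (58.8 to 89.3) of its cells with TP63, 34 in number, and 65.7% (60.5 to 70.5) of those without. LHX2 was in 41.2% (24.6 to 59.3) and 39.3% (34.2 to 44.5) of the same 2 groups. In the papilla-like unit 5 of 91 cells with SOX9 had LHX2 (5.49%, 1.81 to 12.4), against 9 of 116 without (7.76%), and the LHX2 level of that unit overlapped the endothelial-like one.

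**Figure D4:**
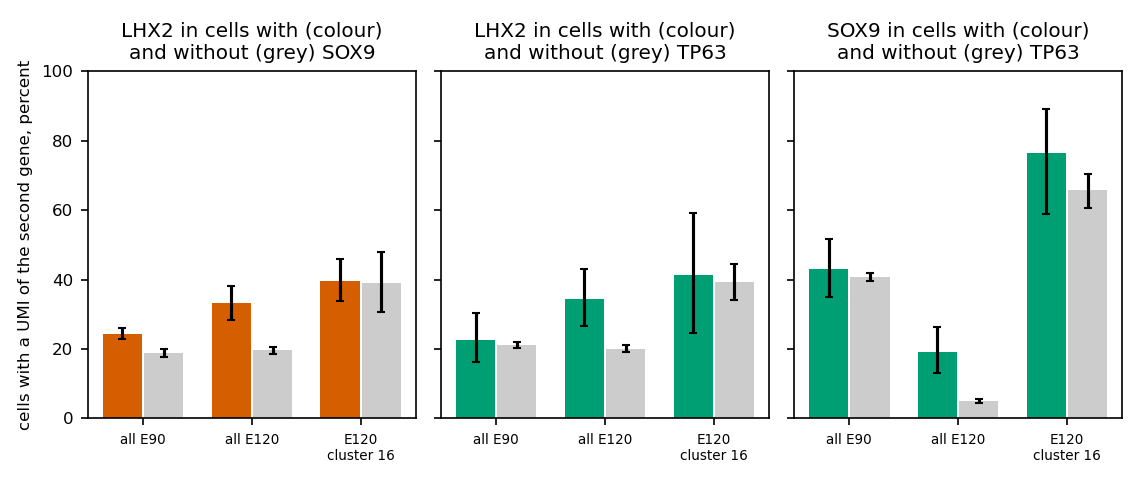
Bars give the percent of cells with a UMI of the second gene among cells with (colour) and without (grey) the first, for all E90 cells, all E120 cells and E120 cluster 16, each cell thinned to 2000 UMIs, with exact binomial intervals. The coloured and grey bars separate for all E120 cells, such as 33.2% against 19.6% for LHX2 with and without SOX9, and their intervals overlap in cluster 16.

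Within the units named epithelial-like the 3 genes were all at a lower CPM at E120 than at E90. At E90 LHX2 was at 217 CPM (208 to 226), SOX9 at 499 CPM (486 to 512) and TP63 at 16.5 CPM (14.2 to 19.1). At E120 the same genes were at 120 CPM (117 to 122), 35.3 CPM (34.0 to 36.6) and 7.38 CPM (6.79 to 8.01). The log2 ratios were −0.85, −3.78 (14.1-fold) and −1.07 (2.24-fold), and the median over the 7949 genes tested was −0.45. Of those genes 30.3% were 2-fold or more lower at E120 and 8.05% were higher. The class was made of clusters 2, 19, 24 and 30 at E90 and of clusters 5, 6, 10, 11, 13, 15, 16 and 20 at E120, so different cell types stand on the 2 sides. Unnamed units were left out, among them cluster 1 of E90 (LHX2 at 119 CPM) and cluster 12 of E120 (242 CPM), both closest to epithelial by markers. TP63 was at 7.05 CPM in the former and 13.3 CPM in the latter. With coarser clusters (Leiden resolution 0.5) LHX2 was at 155 CPM at E90 and 120 CPM at E120. The median of ratios was not applied within the class. Over whole libraries it moved the TP63 log2 ratio of this step from −0.36 to 0.06. For LHX2, short of 2-fold, and for TP63, little past it, no direction is therefore given beyond CPM. The highest SOX9 unit had 988 CPM at E90 (cluster 24) and 1008 CPM at E120 (cluster 16), with overlapping intervals. These different clusters held 213 of 2380 cells of the class at E90 and 398 of 5351 at E120. Most SOX9 UMIs of the E90 class were in cluster 2, with 4185 of 5491. The epithelial-like units of E120 other than cluster 16 had between 1.11 and 7.31 CPM. Cluster 2 of E90 and cluster 10 of E120, the units led by LHX2 or SHH, had LHX2 at 268 and 255 CPM, and SOX9 at 513 and 7.31 CPM.

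Other genes of placodes and follicle induction were counted with the same 2-fold rule, over list members with at least 5 CPM at either stage. A gene that reaches this minimum at 1 stage only had to differ, so these counts describe the genes that passed and not the whole list. From E60 to E90, 13 of 16 were higher and none lower, with a median log2 ratio of 2.89, and 16 of the 20 in the table had passed. Over all genes tested in that step 24.0% were higher and 7.45% lower, and the other lists are to be read against the same shares. TFAP2A, a transcription factor of surface ectoderm, was at 2.49 CPM and 296 CPM, and SOSTDC1, a BMP and WNT antagonist, at 3.86 and 169 CPM. In epithelial-like cells from E90 to E120, 3 of 14 were higher and 7 lower, with a median of −1.09. Over all genes tested there 8.05% were higher and 30.3% lower, and these shares apply to the other lists too. SOSTDC1 was 238 CPM and 8.21 CPM, SEMA3E, a semaphorin, 263 and 11.04 CPM, PTCH1, the hedgehog receptor, 228 and 47.6 CPM, and PDGFA, a growth factor of follicle epithelium, 228 and 56.6 CPM. CTNNB1, which encodes β-catenin, was 79.3 and 54.2 CPM, short of 2-fold.

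Genes of follicle progenitors and stem cells were lower at E120 more often than any other list but the cartilage list. From E60 to E90, 4 of 12 that passed among 19 in the table were higher and 2 lower (median 0.38), against 24.0% and 7.45% of all genes tested. KRT15 was at 0.492 and 182 CPM, and BARX2 at 0.523 and 187 CPM. In epithelial-like cells 10 of 11 were lower at E120 and 1 higher, with a median of −3.02. KRT15, a keratin of bulge cells, was 283 CPM at E90 and 41.3 CPM at E120, LGR5, an R-spondin receptor, 91.8 and 6.19 CPM, NPNT, a basement membrane ligand, 112 and 5.60 CPM, and BARX2 283 and 24.5 CPM. ID3, a BMP target that restrains bHLH factors, was the one higher, at 210 and 1620 CPM. BARX2 lay in the SOX9 unit, with 690 CPM in cluster 16 and at most 7.17 CPM in each other E120 unit.

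Epidermal genes known as targets or partners of p63 were higher at E90 than at E60 in all 20 that passed among 28 in the table, with a median of 3.79. KRT14 and SFN had 0 UMIs at E60 and were at 759 and 42.9 CPM at E90. In epithelial-like cells 13 of 23 were lower at E120 and 1 was higher, with a median of −1.28. KRT5, a basal keratin, was 556 and 57.8 CPM, COL17A1, a hemidesmosome collagen, 71.4 and 7.86 CPM, and KRT14 1188 and 638 CPM. SFN at 70.9 and 71.8 CPM, ZNF750, a p63 target of differentiation, at 48.8 and 70.6 CPM, and DSP, the desmosomal plaque protein desmoplakin, at 725 and 521 CPM did not reach 2-fold.

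Cells with a TP63 UMI had more of some of these genes. Among the 28 in the table, 12 were higher and 1 lower without overlap of the intervals in E120 epithelial-like cells with TP63, and 9 higher and 0 lower at E90. The same counts were not made over all genes, so they do not set this list apart from other genes. In E120 epithelial-like cells KRT14 was at 1267 CPM (1243 to 1292) in the 528 cells with TP63 and 565 CPM (559 to 570) in the 4823 without, and KRT5 at 110 CPM (103 to 118) and 51.7 CPM (50.0 to 53.4). DSP was at 643 and 506 CPM. SFN was at 63.7 CPM (58.3 to 69.4) and 72.7 CPM (70.7 to 74.7), the other way. Of the 528 cells 66 were in cluster 16, which holds most KRT14, and its part in these differences was not tested. At E90 KRT14 was at 1388 CPM (1313 to 1467) in the 165 cells with TP63 and 1170 CPM (1149 to 1191) in 2215 without, and KRT5 at 682 and 544 CPM.

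Paralogs and cofactors of the 3 factors included LMO1, SOX4 and SSBP3. LMO1, a LIM-only protein that can compete with LIM homeodomain factors for their cofactors, was 6.87 CPM at E60 and 86.5 CPM at E90, and in epithelial-like cells 103 CPM at E90 and 4.32 CPM at E120. SOX4, an HMG-box relative of SOX9, was 336 and 145 CPM, and SSBP3, a partner of the LIM domain binding proteins, 61.0 and 25.6 CPM. Of the 18 that the table holds, 9 passed, and 4 of 9 were higher at E90 than at E60 and none lower (median 0.88), against 24.0% and 7.45% of all genes tested. In epithelial-like cells 6 of 8 were lower at E120 and none higher (median −1.21), against 30.3% and 8.05% of all genes tested. TP73, a p63 paralog named here after its values were seen, was 17.5 and 1.79 CPM in epithelial-like cells.

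Cartilage and tendon genes known with SOX9 were mostly lower at E90 than at E60. Of 10 that passed among 16 in the table, 6 were lower and 3 higher, with a median of −1.47, and TNMD was 205 and 6.54 CPM. CYTL1 was 84.7 CPM at E60 and had 0 UMIs at E90. In epithelial-like cells 6 of 6 were lower at E120 (median −3.51), among them COL11A1 at 64.7 and 1.11 CPM. COL11A1 reached the minimum of 5 CPM at E90 only, which fixed its direction. E90 was whole skin and E120 picked follicles, and whether epithelial cells made these transcripts was not tested.

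Hair shaft transcription factors were the list in which higher values at E120 outnumbered lower ones. From E60 to E90, 5 of 6 that passed among 10 in the table were higher and none lower (median 2.90), with GATA3, a factor of the inner root sheath, at 0.753 and 165 CPM. In epithelial-like cells 3 of 7 were higher at E120 and none lower, with a median of 0.55. HOXC13, a homeobox factor that drives shaft keratins, was 15.4 and 386 CPM, MSX1, a homeobox factor of the matrix, 1.36 and 236 CPM, and LEF1, the nuclear partner of β-catenin, 76.3 and 187 CPM. GATA3 at 224 and 197 CPM and CUX1 at 190 and 279 CPM did not reach 2-fold. In the SOX9 unit of E120, cluster 16, HOXC13 was at 152 CPM, MSX1 at 33.3 CPM and LEF1 at 28.1 CPM, against 327, 367 and 231 CPM in cluster 10.

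**Figure D5:**
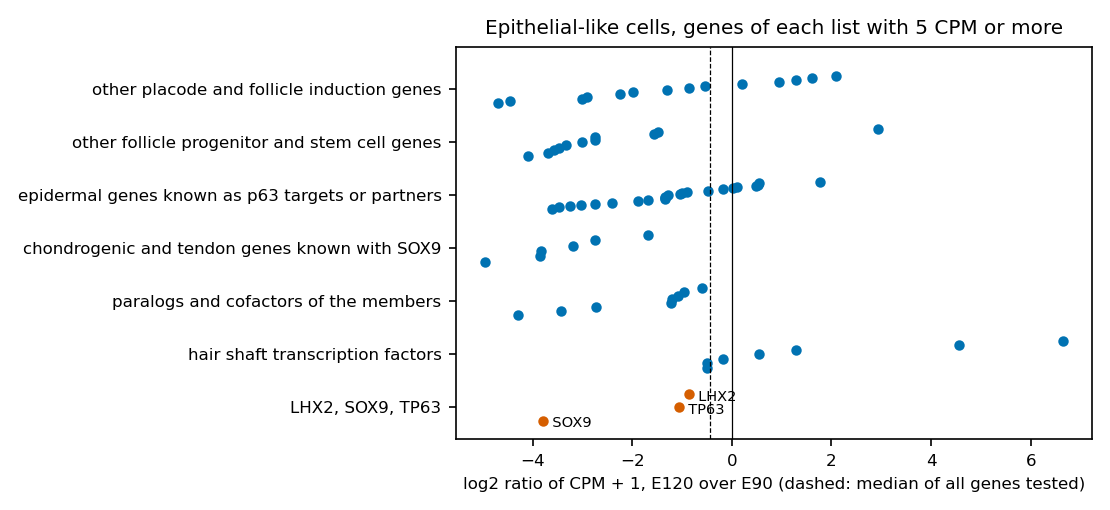
Each point is 1 gene with at least 5 CPM in epithelial-like cells of E90 or E120, at its log2 ratio of CPM + 1, E120 over E90, by list, with the dashed line at −0.45, the median of all 7949 genes. SOX9 at −3.78 lies within the span of the progenitor genes, and LHX2 at −0.85 and TP63 at −1.07 lie nearer the median.

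The genes whose levels were most like each of the 3 over the 36 units were named by Pearson correlation of log2(CPM + 1), among genes with at least 50 CPM in a unit. These units share 3 libraries, and their depth. For LHX2 they included DSC3, ESRP1, DSP, S100A2, GPNMB, FAM83B and BNC1, with correlations from 0.95 down to 0.92. For TP63 they included EPCAM, LSR, PGLYRP1, DSC3, BNC1, FAM83B and DDR1, from 0.90 to 0.85, and DSC3, BNC1 and FAM83B stood in both lists. For SOX9 they were PIK3C2G, BARX2, INHBB, SLC16A11, KRT10, SOSTDC1, GABRP and EHF, from 0.91 to 0.85, none of them shared with the other lists. When levels were centred within each library, 7 of the 8 genes were kept for TP63 and 2 of 8 each for LHX2 and SOX9. Over the 14 E120 units alone 3, 1 and 0 of the 8 were kept for TP63, LHX2 and SOX9, and over the 10 E90 units alone 0 for each. Over the same 36 units the correlation was 0.86 between LHX2 and TP63, 0.56 between SOX9 and TP63 and 0.48 between LHX2 and SOX9, and 0.65, 0.28 and 0.03 after centring.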

How the data were processed

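What the authors deposited is, from the values, the natural log of 1 plus UMI counts scaled to 10000 per cell. Cell Ranger 3.0.2 is named in the submitters' processing notes; the genome build, annotation and cell filters are not given in the sources used here. UMI counts were recovered by inversion, and 100% of nonzero values came out whole within 0.01. The planned design had assumed counts. Of the 16739 genes, 12709 had a symbol and 11897 symbols matched RefSeq (names only). The 3 genes and all lists were chosen with earlier results of these data known.

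All cells entered. Clustering used 2000 variable genes without the 3 studied, 30 principal components, 20 neighbours and Leiden resolution 1 (leidenalg 0.10.2, scanpy 1.11.5, Python 3.11.15), with no correction between libraries, and gave 36 cluster-by-library units of at least 50 cells. A unit took the class with most markers found after division by the square root of the number of markers in its list. Ties went to the higher mean level of the markers. A marker was found if in at least 10% of cells, at 2 times the median of units and 0.5 times its library's level. Units with under 3 markers, or led by another class or by at least 3 mitochondrial or haemoglobin genes, stayed unnamed. A further rule on shallow units without a leading marker of their own was not met by any unit. This scoring was set after the data were seen, in place of a looser one that called E90 units led by endothelial or mast cell genes epithelial. The list minimum of 5 CPM and the 2-fold rule, applied to the log2 ratio of CPM + 1, were also set then. Doublets were scored by Scrublet's method, rebuilt with exact neighbours: 4.25%, 0.0144% and 1.77% of cells were called, which did not work at E90, and none were removed. Genes named from lists were those with at least 50 CPM and the widest range over stages, at most 6 a list, and the 8 most correlated genes, of which 1 is not reported here. Intervals are exact Poisson for CPM and Clopper-Pearson for shares. Thinning and list ratios were tested on simulated data.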

Additional observations from a re-analysis of the deposited data

Results flagged for a closer look

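From E90 to E120 SOX9 differed in direction between classes, with a log2 ratio of −3.78 in epithelial-like cells and 0.71 in dermal-like cells. With 1 library per stage this difference was not tested. The dermal-like cells of E120 were papilla-like (143 CPM of SOX9) and those of E90 were 1 unit led by BMP3 and SPON1 (86.9 CPM), a level below the 164 CPM of the E90 endothelial-like unit.

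TP63 had a log2 ratio of −1.07 in epithelial-like cells and 0.29 in dermal-like cells over the same step, again not tested. The dermal-like value rests on 5 UMIs at E90 and 3 at E120.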

How the results depend on the processing

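No paired analysis was possible because each stage was 1 library. No difference between stages of 2-fold or more changed sign under any alternative run. With 1 library per stage, stability against other fetuses could not be examined, and E90 depth and background limit what can be placed in a cell type there.

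Log2 ratios from E60 to E90 became 3.91 for LHX2, 4.33 for SOX9 and 1.01 for TP63 with a pseudocount of 10 CPM, and 6.39, 4.91 and 3.18 with the median of ratios. Without the E90 cluster led by mitochondrial genes, an alternative added after seeing the data, they were 6.99, 5.61 and 3.81. With cells of at least 1000 genes and at most 10% mitochondrial UMIs, TP63 gave 3.85. That filter kept 2756 of the 6931 E90 cells. From E90 to E120, LHX2 (−0.19) gave 0.28 with the median of ratios, −0.013 with every cell weighing the same, −0.072 with the cell filter and −0.41 without the mitochondrial cluster. SOX9 (−3.25) gave −2.95 with a pseudocount of 10 CPM, −2.775 with the median of ratios, −2.28 with equal weights, −3.40 with the filter, −3.36 without the 6% highest doublet scores (added) and −3.46 without the mitochondrial cluster. TP63 (−0.36) gave 0.063 with the median of ratios, −0.75 with the filter and −0.69 without that cluster.

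Thinned to 1000 UMIs, shares were 12.3% and 11.9% for LHX2 at E90 and E120, 0.730%, 24.8% and 3.90% for SOX9 at the 3 stages, and 1.15% and 0.928% for TP63. Counting only cells with at least 2 UMIs, unthinned, they were 12.6% and 37.3% for LHX2, 30.9% for SOX9 at E90, and 0.274% and 0.798% for TP63. The cell filter gave 19.4% for LHX2 and 2.79% for TP63 at E90. Overlap shares moved with thinning to the values given in the report (24.4% and 33.2% of SOX9 cells with LHX2, 22.6% and 34.5% of TP63 cells with LHX2, 43.2% and 19.0% of TP63 cells with SOX9), and to 41.1% for LHX2 in E90 SOX9 cells without the mitochondrial cluster.

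Epithelial-like levels depended on how the class was made. At Leiden resolution 0.5, with 755 E90 cells in the class, LHX2 was 155 CPM and SOX9 555 CPM at E90. With the class taken from each cell's own markers, LHX2 was 177 CPM, SOX9 411 CPM and TP63 13.8 CPM at E90, and the E120 values were 108, 44.9 and 6.56 CPM for LHX2, SOX9 and TP63. With Spearman correlation 2 of the 8 most similar genes were kept for LHX2 and 2 for SOX9, and with levels centred within libraries (added) also 2 and 2.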
